A study of Mus musculus with 3 samples.

Results

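The translation initiation and elongation factors are the proteins that, with the ribosome, turn an mRNA into protein. On the array they were taken as every gene whose symbol begins with Eif followed by a digit from 1 to 6, or with Eef followed by 1 or 2, together with the termination factors Etf1 and Gspt1. This rule used names and no measured value. It gave 54 genes, represented by 126 probe sets, of the 12393 genes represented by probe sets with a single gene symbol. The rule also takes in the kinases, binding proteins and methyltransferases that carry a factor's name. RefSeq lists 19 further mouse protein-coding genes whose names fit, among them Eif1, Eif2s1, Eif3g and Eif4g1, which had no probe set with a single symbol and are not analysed here.

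Translation starts when eIF2, carrying the initiator tRNA, joins the small ribosomal subunit with eIF1, eIF1A, eIF3 and eIF5, while eIF4E binds the mRNA cap and brings in the scaffold eIF4G and the helicase eIF4A. The exchange factor eIF2B recharges eIF2 with GTP, stress kinases that phosphorylate eIF2 slow this step, and the 4E-BP proteins hold eIF4E back from eIF4G until the kinase mTOR phosphorylates them. eEF1A then delivers each aminoacyl-tRNA, eEF2 moves the ribosome along, and eRF1 (Etf1) with eRF3 (Gspt1) releases the finished chain.

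Signals came from 3 Affymetrix arrays, each of total RNA from a bone marrow culture of C57/BL6 mice. Every culture had been grown with human M-CSF at 50 ng/ml for 3 days, which yields macrophages, and was harvested after 0, 24 or 72 h with human RANKL at 150 ng/ml, the cytokine that drives osteoclast formation. The labels call the 0 h cells precursors, the 24 h cells differentiating precursors and the 72 h cells osteoclasts. With 1 array per time, no value below has a replicate error, a test or a p-value, and precision is limited by having only 3 arrays. No culture was kept without RANKL for 24 or 72 h, so RANKL and time in culture cannot be told apart. The labels do not say how many animals gave the marrow.

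The deposited arrays had no common scale. Their median signals, in time order, were 36.7, 60.9 and 62.7, and each array was centred on the median log2 signal of its gene probe sets. Values under a floor of 29.6 signal units were set to it, and the probe set with the highest mean log2 signal stands for its gene. A gene is called higher or lower at a 2-fold difference, or 1 on the log2 scale. The technical error comes from genes with several probe sets, as the SD of the gap between the log2 differences of 2 of them, divided by the square root of 2. For the first day, the whole course and the step after 24 h it was 0.41, 0.49 and 0.36 over all such genes, and 0.32, 0.37 and 0.24 over the factor genes among them. It does not cover differences between cultures.

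The marker genes followed the labels. Of 9 osteoclast markers, 6, 7 and 9 exceeded the floor on the successive arrays, with summed signals of 1930, 8640 and 33300. All 9 macrophage markers exceeded it on every array, with sums of 34700, 18700 and 21600. Markers of other cell types were present too. The 9 markers of neutrophils and their precursors summed to 18700, 12700 and 1350, with Mpo, Elane and Prtn3 under the floor on the last array. All 5 stromal and osteoblast markers exceeded the floor throughout and summed to 2780, 3330 and 10200, as did all 5 megakaryocyte markers, with sums of 8820, 1720 and 800. Of the lists for B cells, T and NK cells and erythroid cells, at most 1 marker each exceeded the floor on any array. In such bulk RNA, fewer cells of a type and less of a transcript per cell cannot be told apart. The part of these shifts in the results that follow was not tested.

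As a group, the factor transcripts stood highest in the differentiating precursors. Of the 54 genes, 51 were above the floor on all 3 arrays, Eef1a2 and the methyltransferase gene Eef1aknmt on some, and Eef2kmt, a methyltransferase of eEF2, on none. Among the 53 above the floor somewhere, 35 (66%) had their highest signal at 24 h, 10 at 72 h and 8 at 0 h, whereas 38.2% of all 8745 genes above the floor had their highest signal at 24 h. That count of 35 ranged from 31 to 42 under other scalings, and the share of all genes moved as well. The count was 31 with quantile normalization and with trimmed mean scaling, beside 32% and 30.2% of all genes. It was 38 on the deposited scale (beside 50%) and 42 with hybridization control scaling (beside 44.2%). Markers of dividing cells were also highest in the 24 h culture, where 6 of 6 exceeded the floor, with summed signals of 2670, 6890 and 1290, and their part in this pattern was not tested.

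At 24 h against 0 h, 10 of 53 measured factor genes (18.9%) were at least 2-fold higher, against 13.2% of all 8439 measured genes. None was at least 2-fold lower, against 9.22% of all genes. At 1.5-fold, 20 factor genes (37.7%) were higher against 26.7% of all genes, and 2 (3.77%) were lower against 17.8%. The median log2 difference was 0.47 among the factors and 0.12 among all measured genes, and 44 factor genes lay above 0, against 56.9% of all measured genes. The factors' median remained above 0 under every scaling tried, from 0.26 with quantile normalization to 1.20 on the deposited scale. The share called at least 2-fold higher was 11.3% against 10.1% of all genes with quantile normalization and 9.43% against 9.13% with trimmed mean scaling.

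From 24 h to 72 h most factor transcripts moved back. At 72 h against 24 h, 4 of 53 genes (7.55%) were at least 2-fold lower against 10% of all 8391 measured genes, and 1 (1.89%) was higher against 6.92%. At 1.5-fold, 19 (35.8%) were lower against 24.2%, and 1 was higher against 14.2%. The median was -0.41 among the factors and -0.14 among all measured genes, with 40 factor genes below 0, against 59.5% of all measured genes. Both comparisons use the 24 h array, and an error of that array would enter them with opposite sign.

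Over the whole course the factors' median lay close to that of all genes, and few factors were lower. At 72 h against 0 h, 6 of 52 measured genes (11.5%) were higher against 12.5% of all 8558, and 2 (3.85%) were lower against 12.8%. At 1.5-fold, 13 (25%) were higher against 23.2% and 3 (5.77%) lower against 23.3%. The median was 0.01, with 26 genes above and 26 below 0, and -0.01 among all genes. Its sign depended on the scaling, at -0.12 with trimmed mean scaling, -0.11 with quantile normalization, -0.04 with hybridization control scaling and 0.78 on the deposited scale.

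**Figure D1:**
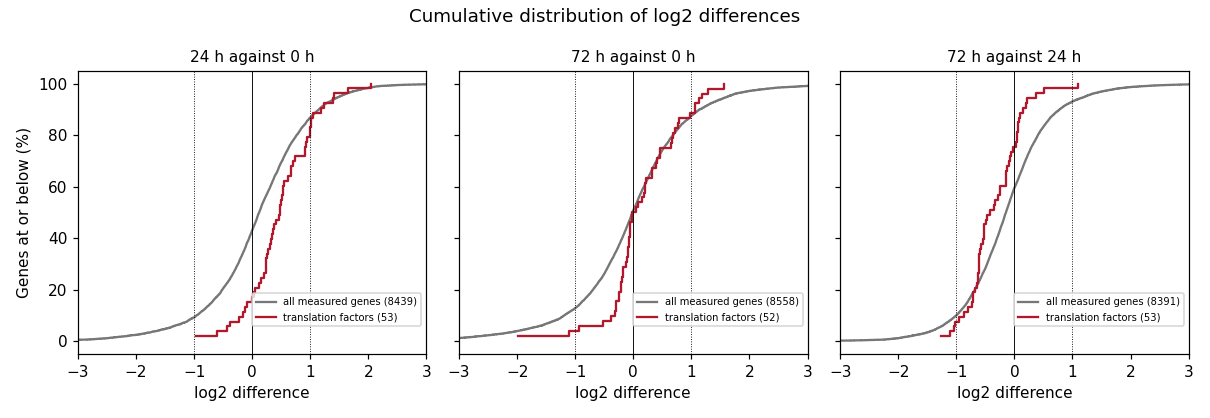
Cumulative percentage of genes (y axis) at or below each log2 difference (x axis) for the 3 comparisons, with all measured genes in grey and the translation factors in red. Dotted lines mark 2-fold. Below 2-fold higher, the red curve lies right of the grey one at 24 h against 0 h (medians 0.47 and 0.12). It crosses the grey one near 0 at 72 h against 0 h, and around the centre lies left of it at 72 h against 24 h (medians -0.41 and -0.14).

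Among the factors that choose the start codon and join the subunits, the 5 measured genes all lay above 0 at 24 h against 0 h. The member that passed 2-fold was Eif5b, the GTPase that joins the large subunit. Its signals, in time order as for every gene that follows, were 272.6, 545.6 and 280.4, so that the 24 h value sat on the 2-fold threshold. A further probe set of Eif5b gave a log2 difference of 0.98. Eif1ax, a copy of the scanning factor eIF1A, went from 597.9 to 1118 and 684.8. Eif1a, Eif1b and Eif5, the GTPase-activating protein of eIF2, stayed within 1.5-fold in every comparison by the probe set that stands for them, although 2 dimmer Eif5 probe sets exceeded 2-fold at 72 h against 0 h, with 1.29 and 1.08.

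By the probe sets that stand for them, the eIF2 subunit genes stayed within 2-fold in every comparison. The beta subunit gene Eif2s2 had signals of 1392, 2201 and 2361. Its 72 h level depends on the probe set, as the second brightest had 935.1, 1679 and 840.9, and another had 444.8, 435.4 and 405.6. The X-linked gamma subunit gene Eif2s3x had 1241, 1616 and 1215, and its Y-linked copy Eif2s3y had 189.3, 139.8 and 163.3. So by these probe sets the X-linked copy was highest at 24 h and the Y-linked copy lowest at 24 h. The dimmest Eif2s3x probe set, with 117.5, 309.9 and 311.9, was more than 2-fold above 0 h at both later times, with a log2 difference of 1.41 at 72 h. By the standing probe sets the change of Eif2s3x minus that of Eif2s3y was 0.82 on the log2 scale at 24 h against 0 h, a difference that no rescaling of a whole array by a factor can alter.

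All 4 measured eIF2B subunits lay above 0 at 24 h against 0 h, with a median of 0.98. Of these, 2 passed 2-fold, beside 13.2% of all measured genes. Eif2b5, the catalytic epsilon subunit, had signals of 158.6, 416 and 261.3 and was 2.62-fold higher at 24 h. Eif2b2, the beta subunit, had 285.6, 576.9 and 598.2, with a log2 difference of 1.01 at 24 h and 1.07 at 72 h. These Eif2b2 calls depend on the probe set. Its 3 probe sets ranged from 0.26 to 1.66 at 24 h, and averaging them put both values under 2-fold. Eif2b1, the alpha subunit, had 261.5, 502.4 and 412.2, just under 2-fold at 24 h, and Eif2b4, the delta subunit, had 324, 467.2 and 309. At 72 h against 24 h the eIF2B median was -0.44.

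The 4 eIF2 kinases slow initiation under stress. By the probe sets that stand for them all stayed within 1.5-fold in all 3 comparisons, with medians against 0 h of 0.10 (24 h) and 0.07 (72 h). At 24 h this median turned to -0.10 with trimmed mean scaling and -0.05 with quantile normalization. The signals were 292.2, 323.5 and 335.8 for Eif2ak3 (PERK, the kinase of the endoplasmic reticulum) and 256.4, 266.2 and 178.6 for Eif2ak1 (the heme-regulated kinase). Another Eif2ak1 probe set had 126.9, 255.5 and 164.1, past 2-fold at 24 h with a log2 difference of 1.01. Eif2ak2 (PKR, which senses double-stranded RNA) had 79.58, 94.14 and 99.7. A dimmer Eif2ak2 probe set went the other way, with a log2 difference of -0.84 at 24 h. Eif2ak4 (GCN2, which senses uncharged tRNA) lay near the floor, between 40.48 and 42.98.

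Most subunit genes of the eIF3 complex, the scaffold that holds the small subunit ready, shared a direction in each step. Of 11 measured subunits, 10 lay above 0 at 24 h against 0 h (median 0.51). All 11 lay below 0 at 72 h against 24 h (median -0.53), and 10 with trimmed mean scaling. The later differences of Eif3a (-0.09), Eif3f (-0.06) and Eif3h (-0.08) were smaller than the technical error of 0.24. In that step 59.5% of all measured genes and 42 of 46 ribosomal protein genes also lay below 0. Over the whole course the median was -0.05, and 0.72 on the deposited scale. The 3 subunits past 2-fold at 24 h, of 11 measured, were Eif3l, Eif3m and Eif3b, beside 13.2% of all measured genes.

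Eif3l had signals of 812.9, 1910 and 1608. Eif3m had 323.8, 739.3 and 511.3. Eif3b, one of the core subunits, had 535.8, 1108 and 460.6. These patterns differ, as Eif3b at 72 h was 2.41-fold under its 24 h level, while Eif3l stayed within 1.5-fold of its 24 h level. At 72 h against 0 h the log2 difference of Eif3b was -0.22, smaller than the technical error, and 0.55 on the deposited scale. A dim second probe set of Eif3l went from 38.94 to under the floor, and the Eif3l and Eif3m calls were lost when probe sets were averaged. Eif3a, the largest subunit, was flat by the probe set that stands for it (1541, 1532 and 1440), while its 3 other probe sets gave log2 differences of 0.42 to 0.85 at 24 h. The 3 subunit genes among the 10 factors with the highest mean signal stayed within 2-fold by the probe set that stands for them. Eif3e had 2020, 3289 and 2363, Eif3c 2118, 2978 and 1958, and Eif3i 2181, 2779 and 1832. At 24 h against 0 h another Eif3c probe set gave a log2 difference of 1.16 and another Eif3e probe set 1.11, both past 2-fold.

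Of the 9 measured genes of the cap-binding group, 2 were called higher and 1 lower at 72 h against 0 h. Of all measured genes, 12.5% were called higher and 12.8% lower. Eif4a1, the main helicase of cap-dependent initiation, had signals of 1475, 2759 and 3591, and was 2.43-fold higher at 72 h than at 0 h. Against 0 h, another Eif4a1 probe set gave log2 differences of 1.24 at 24 h and 1.42 at 72 h. A further one gave 0.81 and 0.77, under 2-fold at both times. The close relative Eif4a2 had 1112, 1015 and 1451. The log2 change of Eif4a1 exceeded that of Eif4a2 by 1.04 at 24 h and by 0.90 at 72 h against 0 h. Over the pairings of their probe sets the excess was 0.94 to 1.37 at 24 h and 0.39 to 1.03 at 72 h. Eif4e, the cap-binding protein, had 608.2, 1228 and 1274, near 2-fold higher at both times (log2 differences of 1.01 and 1.07). Its other probe sets gave 0.95 and 1.17 at 24 h, and 0.72 and 0.48 at 72 h.

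Eif4e3, a cap-binding relative of eIF4E, was lower at each later time. Its signals were 500, 256.1 and 126.3, and the 72 h value was 3.96-fold under 0 h. A second probe set gave a smaller difference of -0.80. Against Eif4e, the change of Eif4e3 was lower by 3.05 on the log2 scale at 72 h, and by 1.28 to 3.05 over the 6 pairings of their probe sets. Eif4e2, the relative that represses translation of its target mRNAs, had 454.3, 696.9 and 627.8. Of the other members, Eif4g2, a relative of the eIF4G scaffold, had 2112, 3339 and 2336, and Eif4h, a helper of the helicase, 2388, 2746 and 2525. Eif4b, another helper, stayed within 1.5-fold of its 0 h level by the probe set that stands for it, as did the scaffold gene Eif4g3, while another Eif4b probe set gave a log2 difference of 0.85 at 24 h.

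By the probe sets that stand for them, the 4E-BP genes went in opposite directions over the whole course. Eif4ebp1, which encodes the mTOR-regulated inhibitor of eIF4E, had signals of 552.6, 765.7 and 1634. Most of its increase fell after 24 h, and at 72 h it was 2.96-fold above 0 h and 2.13-fold above 24 h. It was the member called higher at 72 h against 24 h. A second probe set gave 443.4, 533.1 and 1103, and the remaining one stayed around the floor. Eif4ebp2, its close relative, had 393, 257.7 and 183.2, and was 2.15-fold lower at 72 h than at 0 h. That call was lost with probe sets averaged, where the log2 difference was -0.25, and on the deposited scale, where it was -0.33. Of the 4 Eif4ebp2 probe sets above the floor, 3 were lower at 72 h and the dimmest was higher by 0.42 on the log2 scale. The change of Eif4ebp1 exceeded that of Eif4ebp2 by 2.67 on the log2 scale (6.34-fold) at 72 h against 0 h, and by 0.89 to 2.81 over the 8 pairings of their probe sets. This pair and that of Eif4e and Eif4e3 were singled out after their values were seen. Eif4enif1, which carries eIF4E into the nucleus, had 239, 328.2 and 209.1.

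**Figure D2:**
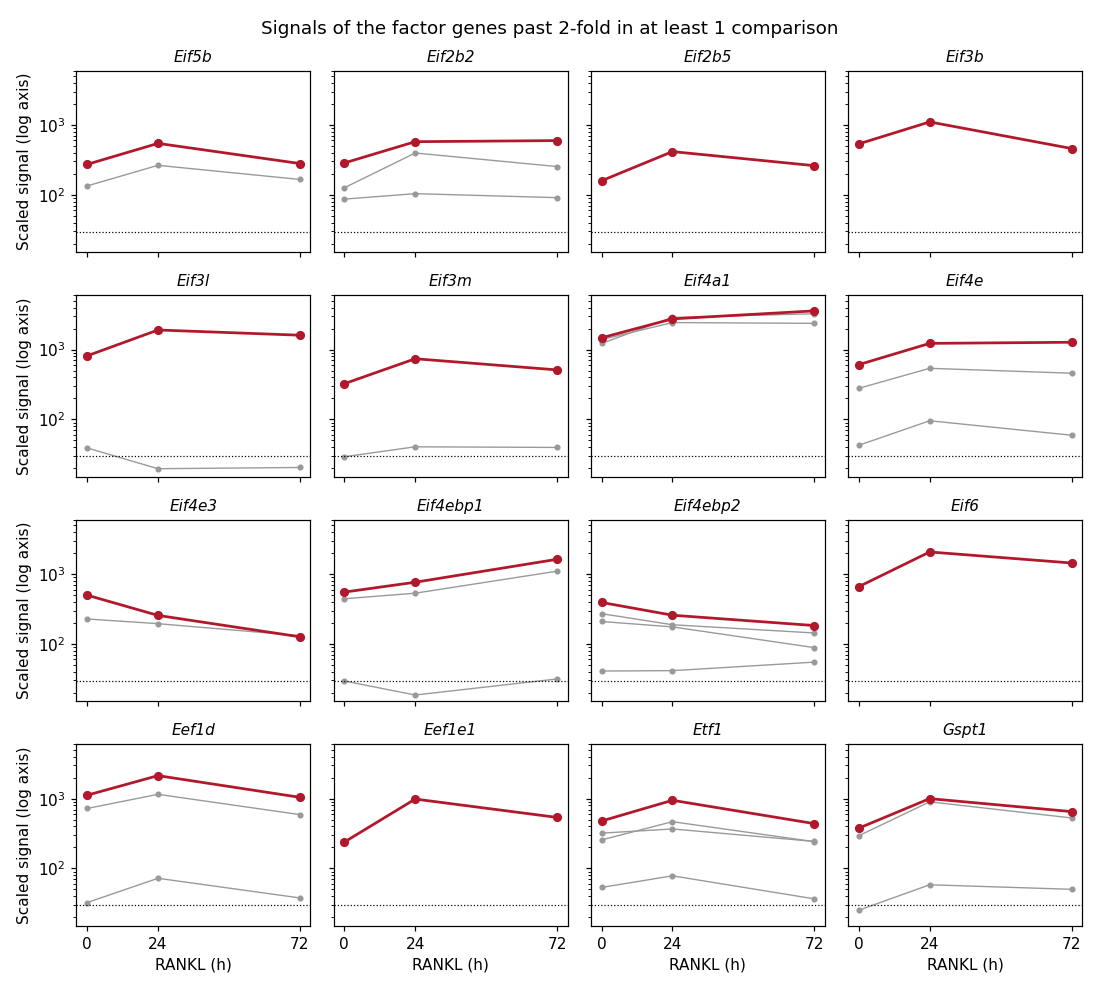
Scaled signal (y axis, log scale) against hours of RANKL (x axis) for the 16 factor genes past 2-fold in at least 1 comparison, with 1 array per time. Red lines are the probe set that stands for the gene, grey lines its other probe sets that exceed the floor at some time, and the dotted line is the floor of 29.6. Most of these genes peak at 24 h, which their selection favours. Of the 16, 10 were at least 2-fold higher at 24 h than at 0 h. By contrast, Eif4ebp1 climbs to 1634 at 72 h and Eif4e3 drops to 126.3.

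Promoter sequences were examined because Eif4e and Eif4a1 differed in the same direction and because of the signals of Myc. Myc, a growth-promoting transcription factor that binds the E-box, had 85.67, 574.6 and 209.1. Other genes listed with Myc did not follow it. Max had 212.6, 136.6 and 94.39, Mxi1 stayed within 1.5-fold, and Mycn and Mxd1 were under the floor on every array. A part of Myc in the factors' differences was not tested. RefSeq promoters (GRCm38.p6, 250 bases before to 50 after the annotated start) were at hand for 43 of the 54 genes. The E-box CACGTG, which reads the same on both strands, was in the promoter of 11 of them (25.6%), against 10.8% of the 9887 array genes with a promoter and 8.09% of all 27025 genes in the table. The 11 were Eef1aknmt, Eef2, Eef2k, Eif1b, Eif3a, Eif3f, Eif3k, Eif4a1, Eif4e, Eif4h and Eif5a. Of these 11, only Eif4a1 and Eif4e were called in any comparison, and the other carriers stayed within 2-fold wherever they were measured. Shown here, with the E-box in capitals, are stretches before the start of Eif4e (chr3:138527177-138527236, plus strand) and Eif4a1 (chr11:69672580-69672639, minus strand), the carriers called in these data, and of Eef2 (chr10:81176561-81176620, plus strand), a carrier whose signal hardly moved.
Eif4e: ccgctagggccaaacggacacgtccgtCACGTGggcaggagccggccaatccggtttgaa
Eif4a1: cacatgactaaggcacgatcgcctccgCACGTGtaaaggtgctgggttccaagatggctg
Eef2: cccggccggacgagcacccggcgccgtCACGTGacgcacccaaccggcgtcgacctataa
The capitals begin 64 bases before the annotated start in Eif4e, 189 in Eif4a1 and 43 in Eef2, and the same Eif4e promoter has a further E-box at 228. The gene with the largest log2 difference at 24 h, Eef1e1, has a promoter in the table without this motif. These are matches of letters, and binding was not measured. The element TGATGCAAT, bound by ATF4 with a partner, was in none of the 43 genes' promoters on either strand, against 0.182% of the array genes. An oligopyrimidine run beginning with C at the annotated start was in 2 of the 43 (4.65%), Eif2s3x and Eif3f, against 3.03% of the array genes. Only the exact annotated base was searched, so a run that starts a few bases away would be missed.

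Of the 2 genes for eIF5A and eIF6, Eif6 showed one of the largest differences. Eif6, which keeps the ribosomal subunits apart and is needed to make the large subunit, had signals of 661.3, 2081 and 1445, and was 3.15-fold higher at 24 h and 2.19-fold higher at 72 h than at 0 h. It has a single probe set. Eif5a, whose hypusine-modified protein helps the ribosome past difficult sequences, had 4294, 6292 and 4137 by a probe set that may match several transcripts. Its other probe set had a log2 difference of 1.48 at 24 h, so the size of the Eif5a difference depends on the probe set.

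Among the elongation factors, Eef1a1, Eef2 and Eef1b2 changed little, whereas Eef1d, like Eef1b2 an exchange factor subunit, moved more. Eef1a1, which brings aminoacyl-tRNA to the ribosome, had signals of 9452, 11459 and 8976, and Eef2, the translocase, had 4697, 4782 and 3797. Eef1b2, an exchange factor subunit for eEF1A, had 2361, 2962 and 2693. Each of these 3 stayed within 1.5-fold in every comparison. Eef1a2, the isoform of muscle and neurons, lay at or near the floor (38.45, under the floor, and 33.81).

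Other members of the elongation group moved more. Eef1e1, a small protein of the multi-tRNA synthetase complex, had signals of 238.6, 988.6 and 539.4, the largest difference of any factor at 24 h (4.14-fold), and at 72 h it was 2.26-fold above 0 h. Its calls held under all 10 alternatives. With 1 probe set, well above the floor, averaging probe sets and moving the floor could not change them. Eef1d, an exchange factor subunit for eEF1A, had 1122, 2143 and 1047, just under 2-fold higher at 24 h and 2.05-fold lower at 72 h than at 24 h. Its 3 probe sets agreed closely for the later step, from -1.03 to -0.94. Eef2k, the kinase that inhibits eEF2, had 88.35, 75.79 and 46.24, with a log2 difference of -0.93 at 72 h against 0 h.

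Both termination factors had their highest signal at 24 h. Gspt1 (eRF3), the GTPase partner, had signals of 377.8, 1003 and 653.2, and was 2.65-fold higher at 24 h. Its other probe set above the floor at both times gave a log2 difference of 1.62. Etf1 (eRF1), which reads the stop codon, had 478.4, 949.3 and 439.1. It was just under 2-fold higher at 24 h (log2 difference 0.99), and 2.16-fold lower at 72 h than at 24 h. The 4 Etf1 probe sets above the floor ranged from 0.20 to 0.99 at 24 h against 0 h. For the later step they ranged from -1.11 to -0.59, and 2 were past 2-fold.

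**Figure D3:**
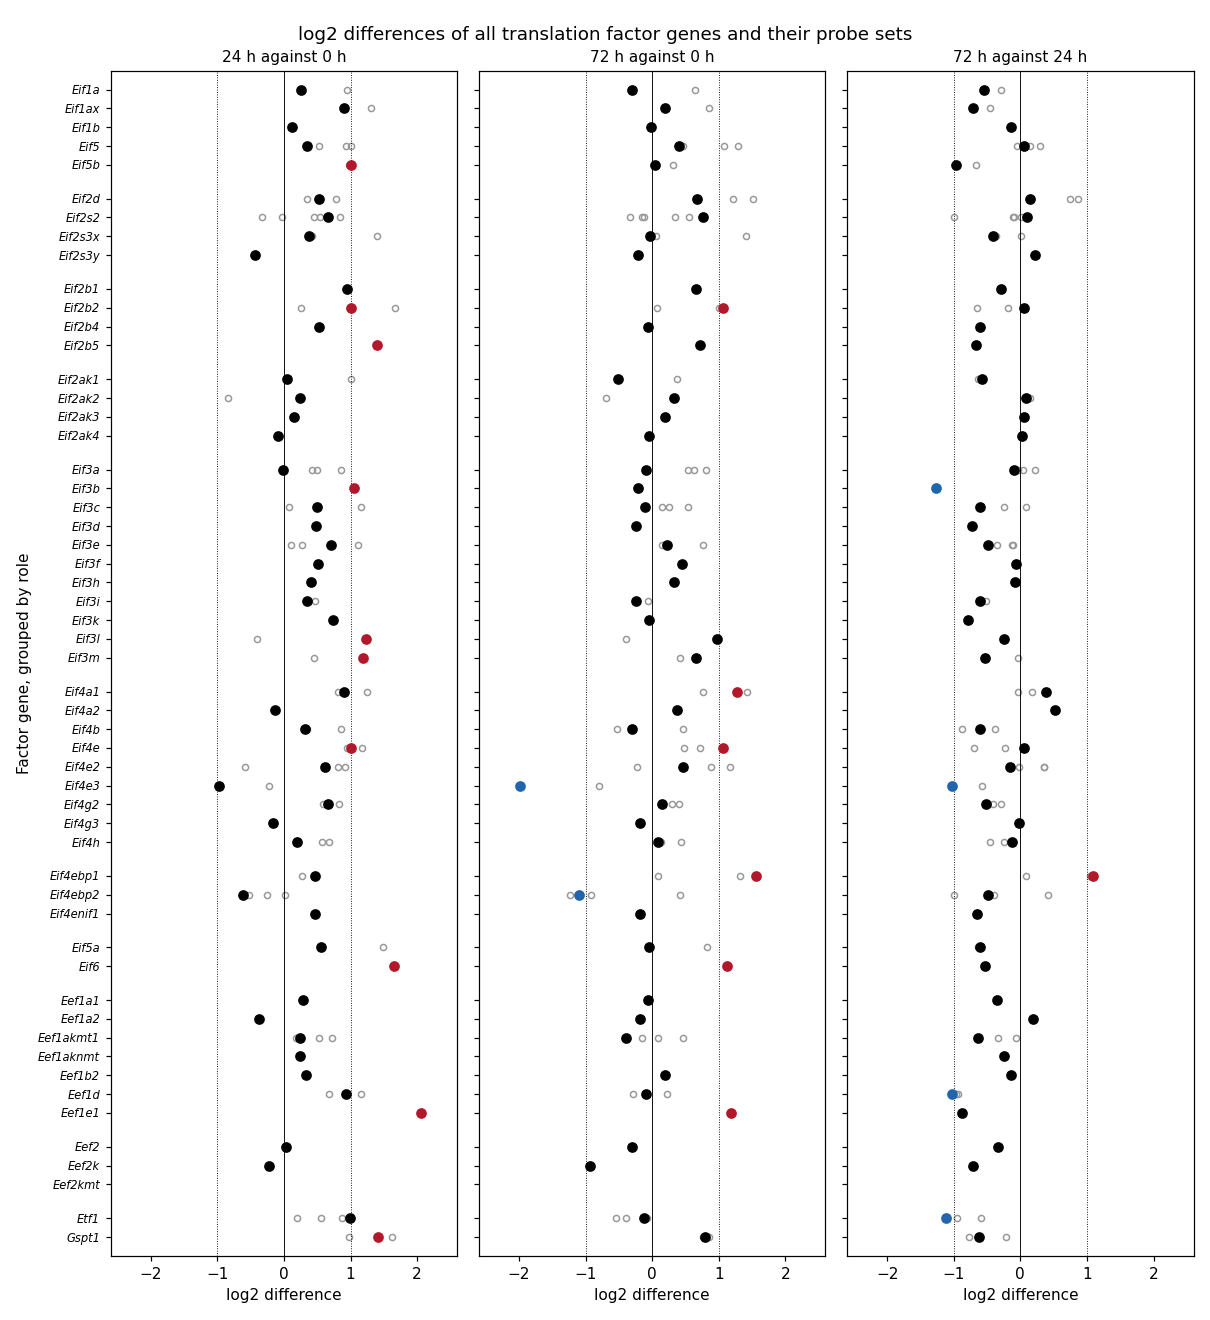
log2 difference (x axis) of each of the 54 factor genes, grouped by role (y axis), in the 3 comparisons. Filled points are the probe set that stands for the gene (red at least 2-fold higher, blue at least 2-fold lower, black within 2-fold), open grey points its other probe sets, and dotted lines mark 2-fold. At 24 h against 0 h the 10 red points lie right of the line with no blue point, and several open points lie far from the filled point of their gene.

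Probe sets of the same gene often differed in size, less often in direction at 24 h. At 24 h against 0 h, 28 factor genes had at least 2 probe sets above the floor on both arrays, and in 23 of them all probe sets had the same sign. This held for 15 of 28 at 72 h against 0 h and for 19 of 29 at 72 h against 24 h. Of the 4 genes called at 24 h that had such probe sets, Gspt1 was past 2-fold by every one. At 72 h this held for Eif4ebp1 among 6 such genes against 0 h, and again for Eif4ebp1 among 4 against 24 h.

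The calls differed in how well they withstood other processing. Those of Eef1e1 (24 and 72 h against 0 h), Eif2b5, Gspt1 and Eif6 (24 h against 0 h), Eif4a1 and Eif4e3 (72 h against 0 h) and Eif3b (72 h against 24 h) were kept under every alternative that gave a value. Some alternatives could not have removed them. Eef1e1, Eif2b5, Eif6 and Eif3b have 1 probe set each, so averaging changes nothing, and a 1.5-fold threshold keeps any 2-fold call. At 24 h, the calls of Eif5b, Eif2b2, Eif3b and Eif4e were lost with both quantile normalization and trimmed mean scaling, that of Eif3m with trimmed mean scaling (0.99), and that of Eif5b also with no floor. Averaging probe sets ended those of Eif2b2, Eif3l and Eif3m. At 72 h against 0 h, those of Eif4e and Eif2b2 were lost under the same settings, that of Eif6 with quantile normalization and that of Eif4ebp2 on the deposited scale. Averaging probe sets ended those of Eif4e, Eif2b2 and Eif4ebp2. The later decreases of Eef1d and Eif4e3 were lost on the deposited scale, where they were -0.99 and -0.98, under quantile and trimmed mean scaling and with probe sets averaged, and that of Etf1 with quantile normalization (-0.97). Both Eif4ebp1 calls were lost when its probe sets, including the dim one, were averaged, and the call against 24 h also with hybridization control scaling (0.96).

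Other genes of translation control outside the naming rule went in both directions. Of 36 on the array, 34 were measured at 24 h against 0 h. Of these, 7 were at least 2-fold higher and 4 lower, beside 13.2% and 9.22% of all measured genes, with a median of 0.51. At 72 h against 0 h, 6 of 35 were higher and 2 lower, beside 12.5% and 12.8% of all genes, with a median of 0.13. At 72 h against 24 h, 3 of 35 were higher and 3 lower, beside 6.92% and 10% of all genes, with a median of -0.20. Denr, which recycles ribosomal subunits, had signals of 237.7, 871 and 617.4, and Abce1, the ATPase that splits ribosomes after termination, had 328.4, 971.3 and 446.3. Both were highest at 24 h. Dhps, the enzyme that starts hypusine formation on eIF5A, had 88.58, 238.4 and 191.

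Genes tied to the stress response and to mTOR signalling were picked here after their values were seen. Ddit3, a transcription factor induced downstream of eIF2 phosphorylation, had 120.1, 35.92 and 129.5, and Ddit4, an inhibitor of mTOR signalling, had 137, 64.92 and 174.4. Both were at least 2-fold lower at 24 h than at 0 h and at least 2-fold higher at 72 h than at 24 h. The Ddit4 difference at 24 h was -1.08 on the log2 scale. It is under 2-fold on the deposited scale, where the 24 h median lay 0.73 above 0 h. Atf4, the transcription factor whose translation rises when eIF2 is phosphorylated, stayed near its 0 h level (1294, 1121 and 1530). Trib3, a target of Atf4, was above the floor only at 72 h, at 66.92. Ppp1r15a, a stress-induced subunit of the phosphatase that acts on eIF2, had 294.8, 227.3 and 307.4, within 1.5-fold throughout. Ppp1r15b, its constitutive relative, had 823, 726.4 and 362.5, at least 2-fold lower at 72 h than at either earlier time. Mknk1, a kinase that phosphorylates eIF4E, had 528.2, 139.7 and 171.9, and Rheb, the activator of mTOR, had 493.9, 905.6 and 1293.

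Values of related groups of the translation machinery are given for comparison. Cytosolic ribosomal protein genes, 46 of them measured, had a median of 0.37 for the first day, -0.01 for the whole course and -0.43 for the step after 24 h. Cytosolic aminoacyl-tRNA synthetase genes, 15 measured, had medians of 0.62 and 0.67 against 0 h and -0.09 at 72 h against 24 h. The 72 h median of the ribosomal protein genes was 0.76 on the deposited scale, and the synthetases' later median was 0.01 with quantile normalization. With 1 array per time, differences between these groups were not tested.

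**Figure D4:**
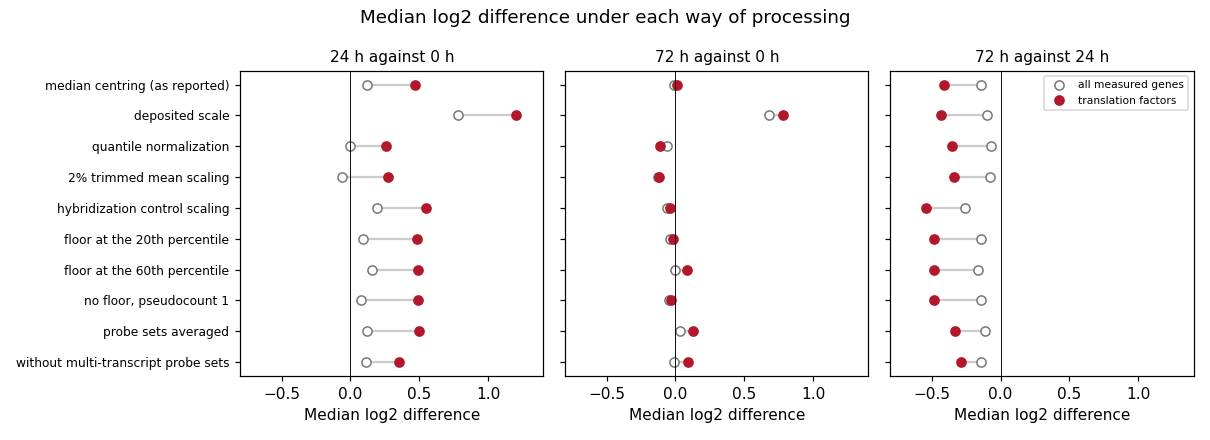
Median log2 difference (x axis) of the translation factors (red) and of all measured genes (open) in the 3 comparisons, under median centring and 9 other ways of scaling, flooring or choosing probe sets (y axis). The red point lies right of the open one in every row at 24 h against 0 h, by 0.24 to 0.41, and left of it in every row at 72 h against 24 h, by 0.15 to 0.34.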

How the data were processed

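The deposited values are linear signal intensities, 1 per probe set and array. The submitters' processing notes name MAS5, with version and scaling target not given in the sources used here. Of 22690 probe sets, 64 were controls. Names were taken from the 2016 platform annotation, where 20380 probe sets had 1 symbol, 691 several and 1555 none. All 126 factor probe sets matched a RefSeq gene by identifier.

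Log2 signals were centred on each array's median, instead of being used on the deposited scale, because the medians lay 0.73 (24 h) and 0.77 (72 h) above 0 h. The floor was set at the 40th percentile of the pooled values of the 3 arrays. Genes under it on both arrays of a comparison were left out of that comparison. Genes given with all 3 signals were those past 2-fold in any comparison and the 10 with the highest mean log2 signal, with others added to describe their role. Member genes and gene lists were chosen with earlier results of these data known. The calculations were tested on simulated arrays, in Python 3.11.15 with pandas 2.3.3.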

Additional observations from a re-analysis of the deposited data

How the results depend on the processing

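No gene called in a comparison changed sign under any alternative that gave it a value. The deposited scale could not have reversed a sign, as it shifts values by at most 0.77 and a call needs at least 1. Nor could a moved floor. Of 23 such calls, 20 kept their side of 2-fold on the deposited scale, 14 with trimmed mean scaling, 13 with quantile normalization, 22 with hybridization control scaling (chosen after seeing the data) and 13 with probe sets averaged. Floors at the 20th or 60th percentile kept all 23. Without multi-transcript probe sets, 17 calls had a value and all 17 were kept. On the deposited scale, 35 of 53 factor genes were higher at 24 h (66%, beside 39% of all genes) and 19 of 52 at 72 h against 0 h (36.5% beside 35%). There, 1 was lower at 72 h against 0 h (1.92% beside 5.33%) and 2 at 72 h against 24 h (3.77% beside 9.11%). The medians against 0 h were 1.20 and 0.78 on that scale. With quantile normalization, 6 were higher (11.3% beside 10.1%) and 1 lower (1.89% beside 11.4%) at 24 h. Under it, 3 were higher at 72 h against 0 h (5.77% beside 11.7%), and 1 was lower at 72 h against 24 h (1.89% beside 8.23%). With trimmed mean scaling, 5 were higher (9.43% beside 9.13%) and 1 lower (1.89% beside 12.5%) at 24 h, and 2 were lower at 72 h against 24 h (3.77% beside 8.72%). With hybridization control scaling, 0 were higher at 72 h against 24 h, beside 5.8% of all genes. With probe sets averaged, 0 were higher (beside 7.05%) and 2 lower (3.92% beside 8.89%) at 72 h against 24 h, and 1 was lower at 72 h against 0 h (2% beside 11.5%). At 1.5-fold, 20 were higher and 2 lower at 24 h, 13 were higher at 72 h against 0 h, and 19 were lower at 72 h against 24 h. Without multi-transcript probe sets, 22 of 39 genes peaked at 24 h, beside 37.9% of all genes. The cause of these shifts was not tested, beyond the fewer genes measured in the last. No paired analysis was possible because each time has 1 array.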

Other observations

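Further factors are on the array only through probe sets that the annotation assigns to several genes, so they entered no count above. The probe set shared by Eif4a3, a helicase of the exon junction complex, and Gm5576 had scaled signals, in time order, of 589.5, 1656 and 742.9. The probe set shared by Eef1g, an eEF1 subunit, and Gm29753 had 2545, 5132 and 3136. The brightest of the 3 probe sets shared by the eIF3 subunit genes Eif3j1 and Eif3j2 had 666.2, 1659 and 958.8. All of these were highest at 24 h, as were most factor genes with a probe set of their own.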
